A study of Mus musculus with 18 samples.

Results

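Total RNA from mouse medulloblastoma cells given 5 nM rapamycin for 3 h was compared with total RNA from cells given DMSO, the solvent, for the same time. The members were chosen by treatment and assay: the 3 RNA libraries labelled rapamycin and the 3 labelled DMSO, 6 of the 18 libraries of the study. The study also gave cells 50 nM Rapalink-1 and sequenced ribosome footprints. The 3 Rapalink-1 RNA libraries entered the same fit, 9 in all, to share the estimate of spread, and their values are set beside those of rapamycin where they bear on them. The footprint libraries were not used here.

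All cells were of the GTML line, grown in neurobasal medium with B27, EGF and basic FGF. The labels give their genotype as overexpression of human MYCN. GTML mice carry that transgene under a tetracycline-responsive element that is switched on from the Glt1 promoter, which is active in progenitors of the hindbrain. The DMSO cells carried the same transgene, so the comparison is of a drug within MYCN-driven cells. The cells represent 1 line, and the labels do not say whether the 3 replicates of a treatment were separate cultures. P-values therefore measure the spread between these samples, which may be technical.

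Rapamycin binds the small protein FKBP12, and the pair docks beside the active site of mTOR, a kinase that couples growth factors and amino acids to protein, lipid and nucleotide synthesis. It acts on mTOR complex 1 and blocks the S6 kinases more completely than the 4E-BP proteins that hold back the cap-binding factor eIF4E. S6 kinase also dampens insulin receptor signalling, SREBP factors depend on mTOR complex 1 to switch on sterol genes, and FoxO factors are active when AKT signalling is low. In Rapalink-1 a linker connects rapamycin with a compound that occupies the kinase's ATP site.

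After the transcripts of each gene were collapsed, the DMSO libraries held between 6788365 and 11210853 reads and the rapamycin libraries between 9397100 and 12073278. Levels are given as CPM, the usual per-depth unit in which each count is divided by the total of its library, scaled with TMM factors. They are relative to all other RNA, and a lower level per cell and fewer cells with the RNA cannot be told apart in bulk samples. DMSO and rapamycin libraries lay apart on the second principal component, which held 25.9% of the variance. The spread was larger among the DMSO libraries, where the chi-square per degree of freedom between pairs ran from 4.6 to 8.59, than among the rapamycin libraries, where it ran from 1.94 to 2.62. DMSO replicate 3 was the shallowest library, and several values that rest on it are given without it as well.

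The line's label was checked against marker genes. Nes, a neural progenitor filament, lay between 50.6 and 52.4 CPM in DMSO, and Slc1a2, which encodes the transporter GLT1, between 13.3 and 17.9 CPM. Neurod1 and Pax6, factors of the granule neuron lineage, lay at 118 to 137 and 45.5 to 49.1 CPM. No tested row carried the symbols Sox2, Sox9, Olig1, Olig2 or Gfap, so these were not analysed here. Of 11 oligodendrocyte markers only Cnp had a tested row, of 14 markers of microglia and blood cells only Itgam and Hbb-bs, and of 14 vascular and fibroblast markers only Acta2. None of these 4 passed the edgeR test with rapamycin, 1 of them (Cnp) had an unadjusted p under 0.05, and DESeq2 called 0. The row labelled Itgam, a marker of myeloid cells, lay between 77.3 and 111 CPM in DMSO. Whether the reads of that row come from Itgam was not tested.

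Rapamycin changed a large number of RNAs by small amounts. Of 11271 genes tested with the quasi-likelihood test of edgeR, 1532 were higher and 1180 lower at an adjusted p under 0.05, which is 13.6% and 10.5% of those tested and 24.1% together. These shares are the background for the counts of each gene group below. The median log2 fold change was 0.40 among the genes that rose and -0.28 among those that fell, and it was 0.00 over all genes. A change of at least 1 on the log2 scale was seen in 116 of the genes that rose and in 12 of those that fell. Only 61 of the 116 and 3 of the 12 carried a symbol, and 22 and 1 had a mean log2 CPM of at least 4. Features without a symbol are counted as genes here, and 9787 of the 11271 tested carried one. The 3 rapamycin values lay wholly above or below the 3 DMSO values for 4009 genes, 35.6% of those tested. In 1454 genes the call held in every fit that left out 1 of the 6 libraries. The authors' deposited table for this comparison was read for the 9787 genes with a symbol. In it 1470 of them were higher and 1163 lower, and the fit here called 2604 of them. Called with the same sign in both were 2471, and with opposite signs 0. Both rest on the same libraries, so they are not independent.

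The rises named first are the 12 largest among called genes with a symbol, a mean log2 CPM of at least 4 and no overlap between the groups. Some genes at lower levels rose by amounts in the same range and are given with their lists. Klhl24, an adaptor of a cullin 3 ubiquitin ligase (chromosome 16, 20097553 to 20129226 on GRCm38), measured 18.5, 16.6 and 18.5 CPM in DMSO and 83.3, 82.2 and 84.9 CPM with rapamycin. All 3 treated libraries were far above all 3 controls, and the log2 fold change was 2.23 ± 0.075 (SE, n = 3 per group, adjusted p = 1.8e-26). Ccng2 encodes cyclin G2, a cyclin associated with cell cycle exit. Its RNA went from 5.47, 5.4 and 5.7 CPM to 25.3, 22.5 and 23.2 CPM, a log2 fold change of 2.10 ± 0.13 (SE, adjusted p = 5.3e-17). Hbp1, an HMG-box repressor of cell cycle genes, measured 15, 14.5 and 17.8 CPM in DMSO and 50.7, 51.7 and 55.2 CPM with rapamycin. These groups did not overlap either, and the log2 fold change was 1.76 ± 0.087 (SE, adjusted p = 4.2e-20).

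Other genes among these 12 rises were Zswim4 (log2 fold change 1.44), the F-box adaptor Fbxl20 (1.39), Qser1 (1.35), the MAX partner and repressor Mxd4 (1.24), the transcriptional repressor Spen (1.23), Baz2a (1.17), the FGF receptor adaptor Frs2 (1.15), the Rab regulator Tbc1d15 (1.13) and Ubald2 (1.12). All 12 were called in each of the 6 fits that left out 1 library. Their lowest rapamycin value exceeded their highest DMSO value, which the rule that named them asked for. Qser1, Baz2a and Tbc1d15 had a DMSO replicate 3 above the other controls. Without that library their log2 fold changes were 1.46, 1.36 and 1.29.

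**Figure D1:**
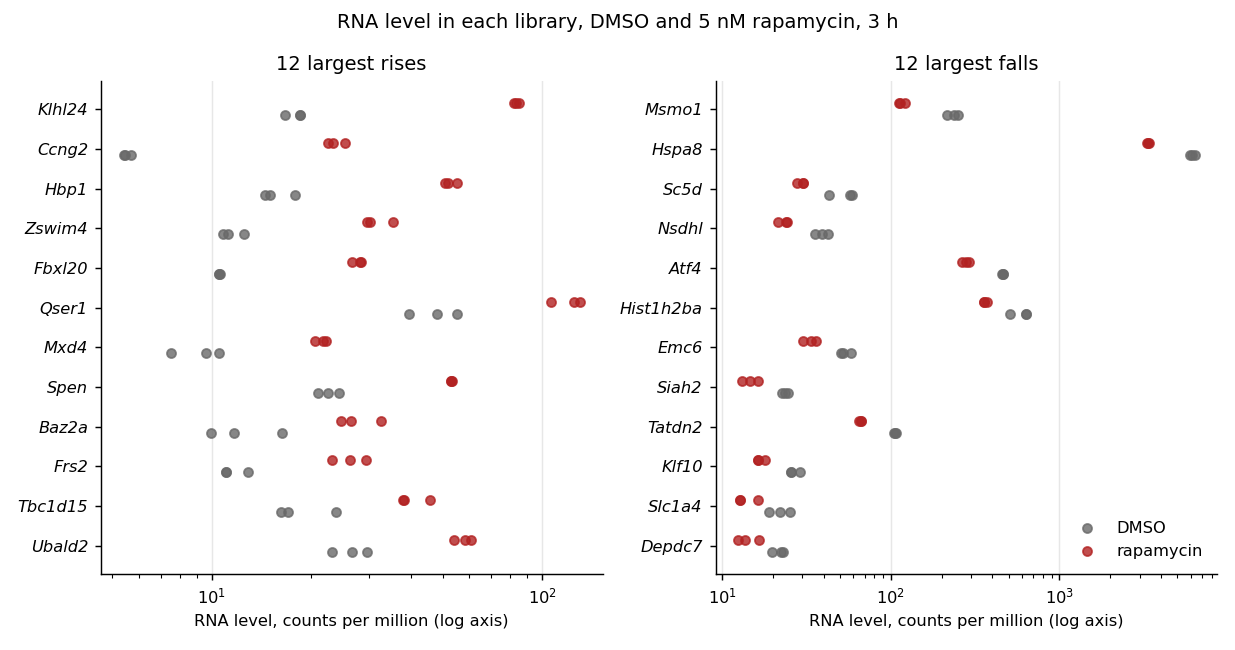
RNA levels in CPM (log axis) of the genes with the 12 largest rises and 12 largest falls, with 1 point per library for DMSO (grey) and rapamycin (red). In each gene shown the 3 rapamycin points lie on the same side of the 3 DMSO points, as the rule that named these genes asked. The widest gap is that of Klhl24.

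The 12 largest falls, named by the same rule, which asked for groups without overlap, were in genes of several kinds. Those of Msmo1, Sc5d, Nsdhl, Hspa8, Atf4, Slc1a4, Hist1h2ba and Klf10 are described with their groups. The others were Emc6, a subunit of the membrane insertase of the endoplasmic reticulum (log2 fold change -0.70), Tatdn2 (-0.69), the ubiquitin ligase Siah2 (-0.69) and Depdc7 (-0.63). Tatdn2 measured 108, 106 and 105 CPM in DMSO and 66.7, 66.4 and 64.5 CPM with rapamycin, so both groups were tight and far apart.

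The promoter of Hbp1 is shown because it was the only promoter among the 11 available for the 12 largest rises that held a FoxO site. The 250 bases before the start site in the RefSeq table (GRCm38.p6, chr12:31950246-31950495, minus strand) are printed with the letters GTAAACA in capitals. That start site lies within the outermost bounds of the gene record, 31926452 to 31950530, and the printed window falls inside those bounds too.
Hbp1: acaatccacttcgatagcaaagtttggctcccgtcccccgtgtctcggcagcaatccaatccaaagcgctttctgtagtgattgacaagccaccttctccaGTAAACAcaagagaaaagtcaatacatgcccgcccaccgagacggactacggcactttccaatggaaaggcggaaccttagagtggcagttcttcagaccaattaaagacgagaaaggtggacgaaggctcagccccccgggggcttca
That motif, searched on both strands, was found in 152 of 7664 promoters of tested genes (1.98%) and in 1 of 15 promoters of the FoxO list. A match describes the letters in this window and nothing more.

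Genes of sterol synthesis fell nearly throughout the pathway. Of 32 tested genes of the sterol list, 22 were lower and 2 higher, with a median log2 fold change of -0.26 against 0.00 over all genes. All 9 enzymes from acetyl-CoA to the prenyl diphosphates were measured, and 8 of them fell. Of the 12 enzymes from squalene to cholesterol, 10 fell, with a median of -0.44. Reads of the sterol list made up between 0.449 and 0.475% of a DMSO library and between 0.359 and 0.362% of a rapamycin library, so the groups did not overlap.

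The largest fall among the called genes that the naming rule picked was in this pathway. Msmo1, the methylsterol monooxygenase that removes methyl groups from the sterol ring (chromosome 8, 64718123 to 64733578), measured 249, 216 and 238 CPM in DMSO and 114, 121 and 112 CPM with rapamycin. Its RNA fell by 1.01 on the log2 scale (SE 0.057, adjusted p = 4.5e-18). Sc5d, a sterol desaturase, went from 57.5, 43.1 and 59.3 CPM to 30.1, 30.4 and 27.9 CPM, and Nsdhl, a sterol dehydrogenase, from 42.3, 38.9 and 35.5 CPM to 21.6, 23.8 and 24.2 CPM. These 3 enzymes act late in the pathway. None of their treated values reached a control value, which the rule that named them asked for. The log2 fold changes were -0.84 ± 0.099 for Sc5d and -0.75 ± 0.096 for Nsdhl (SE, adjusted p = 4.3e-08 and 6e-08).

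Earlier steps fell by less. Hmgcs1, the synthase that makes HMG-CoA, measured 420, 400 and 356 CPM in DMSO and 261, 266 and 263 CPM with rapamycin, a log2 fold change of -0.58 ± 0.05 (SE, adjusted p = 3.6e-12). Idi1, Fdft1, Sqle and Cyp51 fell by 0.49, 0.43, 0.53 and 0.53. Ggps1 (-0.13), which makes geranylgeranyl diphosphate and leads away from cholesterol, did not pass the test, nor did Hsd17b7 (-0.20) and Dhcr7 (-0.11).

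The regulators of the pathway were split. Insig1, an SREBP target that holds SREBP factors in the endoplasmic reticulum, fell by 0.56 on the log2 scale. Srebf1 fell by 0.14, a call that held in 1 of the 6 fits without a library, whereas Srebf2 (0.15), Scap (0.13) and Insig2 (0.19) did not pass the test. Abca1, which exports cholesterol, rose by 1.26 (adjusted p = 4.7e-06), from a mean of 3.33 ± 0.30 CPM to 8 ± 0.98 CPM (SD, n = 3 each). The exporter Abcg1 also passed the test (0.60), but the call held in only 1 of the 6 fits that left out a library. In Rapalink-1 against DMSO, which shares the DMSO libraries, the list's median was -0.32 and Msmo1 stood at -1.45.

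**Figure D2:**
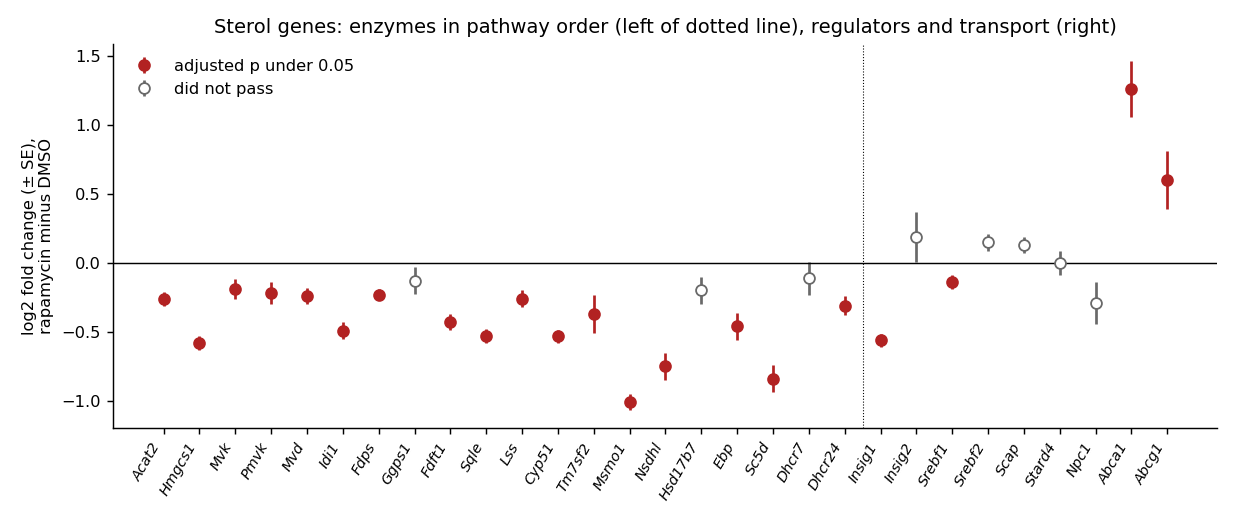
Log2 fold change (± SE) of individual tested sterol genes, rapamycin minus DMSO, with enzymes in pathway order on the left of the dotted line and regulators and transporters on the right. Filled points passed the test. Msmo1, Sc5d and Nsdhl lie lowest, and Abca1 lies highest at 1.26.

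Promoters of 3 of these enzymes are shown because they carry the short box read by NF-Y, a factor known to act with SREBP. The bases are the 250 before the start site in the RefSeq table (GRCm38.p6), and capitals mark ATTGG or its reverse complement CCAAT and, in Hmgcs1, also a sterol element TCACNCCAC. The regions are chr8:64733579-64733828 (minus strand) for Msmo1, chr13:119690101-119690350 (plus strand) for Hmgcs1 and chrX:72918271-72918520 (plus strand) for Nsdhl.
Msmo1: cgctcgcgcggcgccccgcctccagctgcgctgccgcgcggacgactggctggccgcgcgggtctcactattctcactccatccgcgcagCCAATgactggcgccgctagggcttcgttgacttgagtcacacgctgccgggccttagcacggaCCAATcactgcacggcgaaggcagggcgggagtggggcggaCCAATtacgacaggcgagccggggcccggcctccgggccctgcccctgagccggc
Hmgcs1: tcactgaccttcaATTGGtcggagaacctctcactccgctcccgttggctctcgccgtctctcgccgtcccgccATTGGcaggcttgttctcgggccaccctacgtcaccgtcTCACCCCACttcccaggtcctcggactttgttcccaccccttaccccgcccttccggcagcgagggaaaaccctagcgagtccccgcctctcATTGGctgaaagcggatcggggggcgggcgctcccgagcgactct
Nsdhl: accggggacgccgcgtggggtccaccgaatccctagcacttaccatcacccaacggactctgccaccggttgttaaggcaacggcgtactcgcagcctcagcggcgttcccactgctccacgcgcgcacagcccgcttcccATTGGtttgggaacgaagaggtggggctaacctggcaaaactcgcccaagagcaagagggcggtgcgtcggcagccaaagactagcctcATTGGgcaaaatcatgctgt
The box, searched on both strands, was in 18 of the 22 promoters available for the sterol list and in 2905 of 7664 promoters of tested genes (37.9%). It was in 14 of the 15 available for sterol genes that fell, a subset chosen by the fold changes. It was in 11 of 15 promoters of the FoxO list, of which 0 fell, and in 17 of 21 of the unfolded protein response list. Among sterol genes that did not pass the test, Ggps1, Hsd17b7 and Insig2 held 3 boxes each, Srebf2 held 1, and Dhcr7 and Scap held 0. Among those that fell, Mvk (-0.19) held 5, Sc5d (-0.84) held 1 and Acat2 (-0.26) held 0. Whether the box goes with the fall was not tested. The sterol element was in 73 of the 7664 promoters (0.953%) and, within the sterol list, in that of Hmgcs1.

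Fatty acid genes moved less. Of 18 tested, 6 were lower and 1 higher, with a median of -0.11, and without rapamycin replicate 2 the count of lower genes was 3. Fads2, a desaturase, fell by 0.34 and Fasn, the fatty acid synthase, by 0.16. Lpin1, a phosphatidate phosphatase that also restrains SREBP in the nucleus, rose by 0.83 (adjusted p = 2.4e-05), from 7.45, 8.8 and 7.84 CPM to 15.9, 13 and 14.2 CPM.

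FoxO factors and their targets rose more often than they fell, though 18 of the 28 listed had a tested row. Of 18 tested, edgeR called 10 higher and 0 lower, with a median of 0.29. At an unadjusted p under 0.05, 12 were higher and 1 lower, DESeq2 called 10 and 0, and the number higher ran from 7 to 12 when 1 library was left out. Besides Ccng2, the ubiquitin ligase subunit Fbxo32 went from 3.5, 2.61 and 5.7 CPM to 12.6, 11.4 and 11.4 CPM, a log2 fold change of 1.66 ± 0.18 (SE, adjusted p = 2.2e-09). The levels were low, yet no treated library came near a control. Foxo3 itself rose by 0.59, and Cdkn1b, which encodes the cell cycle inhibitor p27, by 0.30, the latter with a call that held in 4 of the 6 fits without a library. Txnip, a brake on glucose uptake, rose by 0.49, and that call held in 3 of the 6 fits without a library. Cat (-0.15), Gadd45a (-0.12), Foxo4 (-0.10) and Sod2 (-0.07) did not pass the test. Neither did Sesn1 (0.26), Sesn3 (0.24), Tob1 (0.24) and Klf6 (0.20).

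The same list holds genes of the insulin pathway, which were also counted as a list of their own. Of 22 tested genes of insulin receptor, PI3K and AKT signalling, edgeR called 9 higher and 0 lower, with a median of 0.22. At an unadjusted p under 0.05, 11 were higher and 2 lower, and DESeq2 called 8 and 0. Irs2, the docking protein of the insulin receptor, measured 25.9, 29.5 and 27.5 CPM in DMSO and 48.9, 42.7 and 52.3 CPM with rapamycin, a log2 fold change of 0.79 ± 0.086 (SE, adjusted p = 1.5e-09). Pik3ca, the catalytic subunit of PI3K, went from 85.2, 88.8 and 81.8 CPM to 131, 144 and 147 CPM (0.72 ± 0.06, SE, adjusted p = 1e-12). Receptors Insr (0.59) and Igf1r (0.53), the docking protein Irs1 (0.60) and the phosphatase Phlpp1 (0.48) rose as well. Gsk3b passed the test at 0.33, but its groups overlapped, and the call held in 3 of the 6 fits without a library. Akt1 (-0.01) and Pik3r2 (-0.02) did not pass the test. These genes are long, with a median genomic span of 81798.5 bases, and after removal of a trend with span described below 6 were higher and 2 lower, with a median of 0.12.

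Most components of the mTOR complexes and of nutrient sensing did not pass the test, as with all genes tested, of which 24.1% passed. Of 36 tested, 8 were higher and 1 lower, with a median of 0.02, and without DMSO replicate 1 or without rapamycin replicate 1 the count of higher genes was 5. With the span trend described below removed, 4 were higher and 4 lower. Deptor, an inhibitory subunit of both mTOR complexes, went from 4.85, 4.36 and 5.13 CPM to 8.63, 11.1 and 10 CPM (1.07 ± 0.18, SE, adjusted p = 9.4e-06). Rhebl1, a relative of the mTOR activator Rheb, went from 5.47, 5.4 and 5.84 CPM to 14.5, 16.6 and 12.5 CPM (1.40 ± 0.16, SE, adjusted p = 3.2e-09). Both started near 5 CPM, and in both the groups were well separated. Rictor, the defining subunit of mTOR complex 2, rose by 0.51. Rptor, that of complex 1, passed the test at 0.31, with a call that held in 4 of the 6 fits without a library and not with the span trend removed (0.12, adjusted p = 0.37). Mtor measured 54.4, 56.1 and 47.8 CPM in DMSO and 63.1, 57.9 and 62.4 CPM with rapamycin, a log2 fold change of 0.20 ± 0.072 (SE, adjusted p = 0.035), and the call held in 2 of the 6 fits without a library. With the span trend removed Mtor stood at 0.09 (adjusted p = 0.39). Sesn2, a leucine sensor and ATF4 target, fell by 0.71 (adjusted p = 0.0029).

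Regulators of the cap-binding complex were called in both directions. Pdcd4, which blocks the helicase eIF4A and is destroyed after phosphorylation by S6 kinase, measured 36.6, 41.6 and 38.9 CPM in DMSO and 78.2, 83.1 and 86.7 CPM with rapamycin. Every treated library was well above the controls, and the log2 fold change was 1.08 ± 0.069 (SE, adjusted p = 2.5e-16). Eif4ebp2, a repressor of eIF4E, went from 1.44, 3.22 and 3.99 CPM to 6.06, 5.2 and 6.35 CPM, a log2 fold change of 1.07 ± 0.27 (SE, adjusted p = 0.0023). Without DMSO replicate 1, its lowest library, it was 0.72 and no longer called (adjusted p = 0.058). Eif4ebp1 (0.02 ± 0.07, SE, adjusted p = 0.85) had overlapping groups. Over the list, 6 of 22 tested were higher and 4 lower, with a median of 0.02. Without DMSO replicate 1 the counts were 3 and 2. Larp1, which binds the 5′ ends of TOP mRNAs, passed the test at 0.18 (adjusted p = 0.027) with overlapping groups and in 2 of the 6 fits without a library, and stood at 0.09 (adjusted p = 0.31) with the span trend removed.

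Ribosomal protein mRNAs, whose translation is a main target of mTOR through their TOP motif, changed little in abundance. Of 49 of the large subunit, 6 were higher and 10 lower with a median of -0.01, and of 33 of the small subunit, 6 were higher and 6 lower with a median of -0.02. Reads of the large subunit made up 6.57 to 6.75% of DMSO and 6.56 to 6.71% of rapamycin libraries, which overlap. Without DMSO replicate 1 the counts of higher genes were 2 and 3. With the span trend described below removed, the balance turned to 13 higher and 5 lower for the large subunit and 10 higher and 3 lower for the small, with medians of 0.04 and 0.05. The largest named changes were small, with Rpl36a at 0.25 and Rpl7 at -0.20. Of 25 other TOP mRNAs, 10 were higher and 4 lower, with a median of 0.06, and without rapamycin replicate 1 the count of lower genes was 1. Eef2, which translocates the ribosome along mRNA, measured 2890, 3050 and 2800 CPM in DMSO and 3870, 3850 and 3940 CPM with rapamycin, a log2 fold change of 0.41 ± 0.038 (SE, adjusted p = 1.1e-11). Eef1a1 rose by 0.14 and Eif3f by 0.47. Pabpc1, the poly(A)-binding protein, measured 235 and 243 CPM in DMSO replicates 1 and 2 and 396 CPM in replicate 3, against a mean of 548 ± 34 CPM (SD, n = 3) with rapamycin. Its call at a log2 fold change of 0.92 (adjusted p = 0.022) held in 1 of the 6 fits without a library, and without DMSO replicate 3 the value was 1.20.

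The ATF4 program fell in part. Atf4 itself, the factor that drives amino acid supply genes, measured 455, 464 and 464 CPM in DMSO and 278, 293 and 264 CPM with rapamycin. The groups were far apart, and its RNA fell by 0.73 on the log2 scale (SE 0.046, adjusted p = 1.4e-16). Of 33 tested genes of the list, 14 were lower and 3 higher, with a median of -0.15, and without rapamycin replicate 2 the count of lower genes was 9. Ddit3, which encodes the stress factor CHOP, fell by 0.70, the transporters Slc1a4 and Slc7a3 by 0.68 and 0.61, the cysteine enzyme Cth by 0.45, the serine enzyme Psph by 0.41 and the asparagine synthetase Asns by 0.23. Slc38a2, a glutamine carrier, rose by 0.41 and Slc7a1, an arginine carrier, by 0.44. Phgdh (0.00), Slc7a5 (-0.04) and Slc3a2 (0.04), also ATF4 targets, did not pass the test.

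A few abundant chaperones fell strongly while most did not pass the test, as with all genes tested. Hspa8, the constitutive cytosolic HSP70, measured 6330, 5970 and 6100 CPM in DMSO and 3390, 3290 and 3330 CPM with rapamycin. The libraries of each group were within a narrow range, and the RNA fell by 0.88 on the log2 scale (SE 0.037, adjusted p = 1.1e-22). Hspa5, its relative in the endoplasmic reticulum, went from 1650, 1630 and 1610 CPM to 1100, 1100 and 1050 CPM (-0.59 ± 0.04, SE, adjusted p = 1.6e-15). Dnajb1, an HSP40 partner, fell by 0.52, Herpud1, of endoplasmic reticulum degradation, by 0.58, and Xbp1, a factor of the unfolded protein response, by 0.30. In contrast Hsp90ab1 rose by 0.25 and Hsph1 by 0.43, and Hsp90b1 (0.05), Calr (-0.06) and Canx (0.08) did not pass the test. Counts were 3 higher and 8 lower of 31 cytosolic and mitochondrial chaperones, and 1 higher and 4 lower of 25 genes of the endoplasmic reticulum list. Without DMSO replicate 3 the latter had 7 lower.

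Genes of ribosome biogenesis fell more often than they rose. Of 47 nucleolar factors and RNA polymerase I subunits, 18 were lower and 4 higher, with a median of -0.10. Without DMSO replicate 1 the count of higher genes was 2. Nop2, an rRNA methyltransferase, went from 251, 255 and 238 CPM to 188, 167 and 179 CPM (-0.48 ± 0.05, SE, adjusted p = 5.6e-10). Polr1b, a core subunit of RNA polymerase I, fell by 0.39, Nop58 by 0.38 and Utp4 by 0.31. Cytosolic aminoacyl-tRNA synthetases had 1 higher and 4 lower of 20, and nucleotide synthesis genes 0 higher and 5 lower of 27, and without DMSO replicate 1 the counts of lower genes were 2 and 1. Without DMSO replicate 3 there were 8 lower synthetases, and without DMSO replicate 2 there were 8 lower nucleotide genes. For nucleotide genes, 11 were lower and 1 higher at an unadjusted p under 0.05, and DESeq2 called 6 lower and 0 higher. Gmps, the last step of GMP synthesis, fell by 0.34.

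Of 8 tested genes of the MYC network, 4 were higher and 2 lower, with a median of 0.25. Mycn measured 790, 779 and 810 CPM in DMSO and 685, 681 and 686 CPM with rapamycin. The groups did not overlap, and the RNA fell by 0.21 on the log2 scale (SE 0.042, adjusted p = 0.00012). The row is that of the mouse gene, and how far reads of the human transgene entered it was not tested. Mxd4 went from 7.54, 9.58 and 10.5 CPM to 22.2, 20.5 and 21.7 CPM (1.24 ± 0.13, SE, adjusted p = 9.4e-10), Mxi1, also a MAX partner that represses, rose by 0.68, Mga by 0.38 and Mxd3 by 0.37, the last with a call that held in 2 of the 6 fits without a library. Mlx, a partner of the MondoA and MXD proteins, fell by 0.39 (adjusted p = 0.00027). Max (-0.11) and Mycl (0.12) did not pass the test. Odc1, a well-known MYC target of polyamine synthesis, rose by 0.17, and its list had 1 higher and 2 lower of 11. Ccnd1, cyclin D1, did not pass the test at -0.13 (adjusted p = 0.47).

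**Figure D3:**
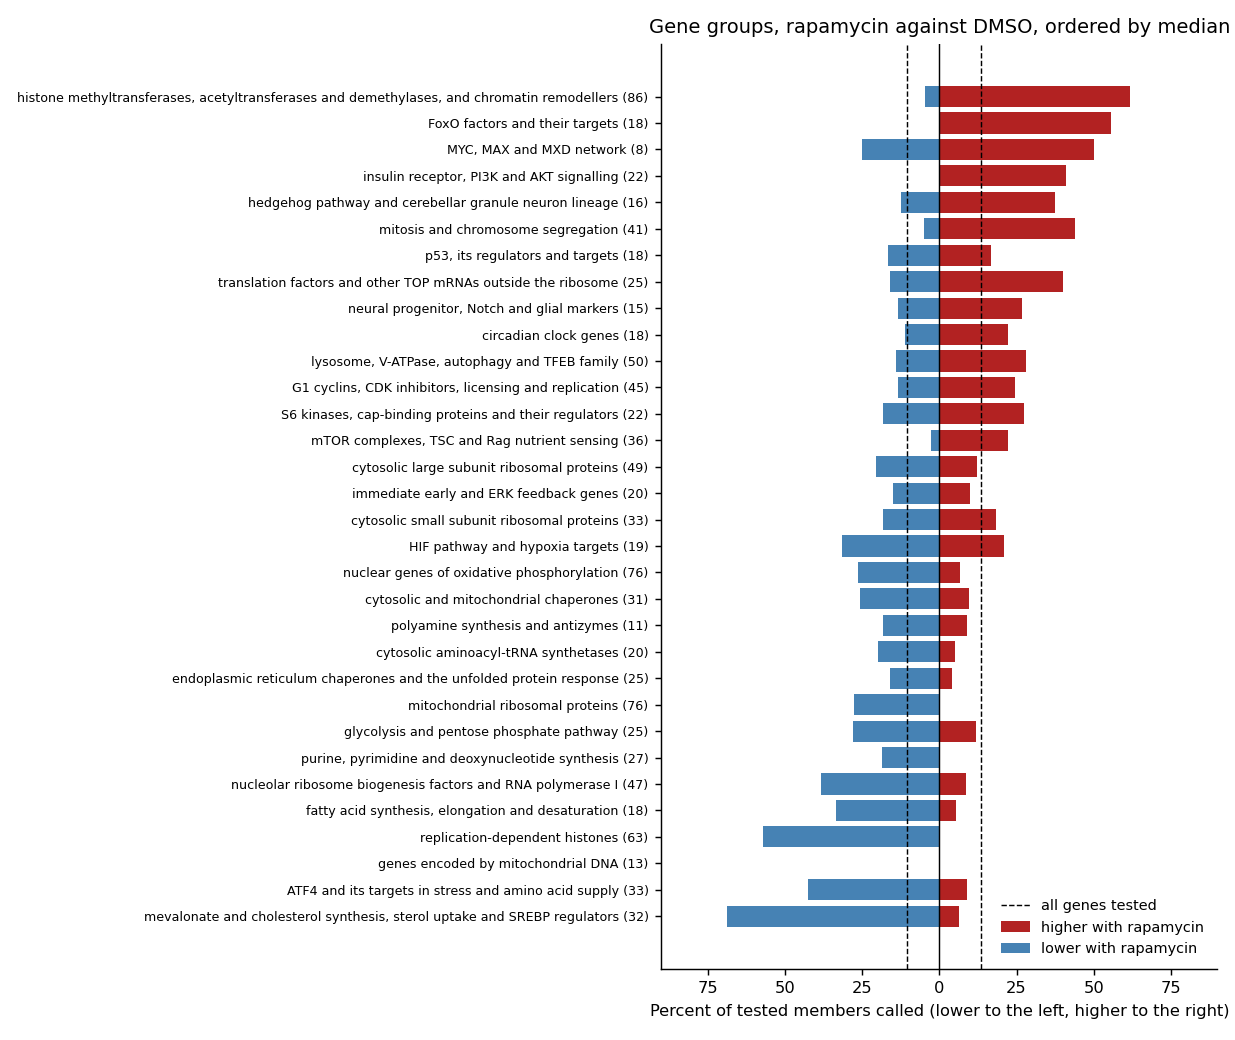
Percent of tested members of each gene group called higher (red, to the right) or lower (blue, to the left) with rapamycin, with the number tested in brackets, ordered by median log2 fold change. Dashed lines mark 13.6% higher and 10.5% lower over all genes tested. Sterol genes and histones extend furthest to the left, and chromatin regulators and FoxO targets furthest to the right.

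Many chromatin regulators rose. The list of histone-modifying enzymes and remodellers was added after the values had been seen, so its counts only describe. Of 86 tested, 53 were higher and 4 lower, with a median of 0.29, and without DMSO replicate 1 the count of lower genes was 1. Srcap, the ATPase that loads the variant histone H2A.Z, measured 30.3, 36.3 and 38.9 CPM in DMSO and 78.8, 66.9 and 71.9 CPM with rapamycin (1.05 ± 0.083, SE, adjusted p = 1.9e-13). Ep300, a histone acetyltransferase, went from 16.6, 14.5 and 24.4 CPM to 34, 30.8 and 34.1 CPM, with DMSO replicate 3 above the other controls and still below all treated libraries. Its log2 fold change was 0.87 ± 0.12 (SE, adjusted p = 1.2e-06) and 1.08 without that library. The related Crebbp rose by 0.88, the methyltransferases Kmt2a, Kmt2d and Kmt2c by 1.03, 0.92 and 0.82, the remodeller subunit Arid1a by 0.86, and the demethylating dioxygenase Tet3 by 0.85. The remodeller subunits Smarcb1 (-0.11) and Smarce1 (0.08) and the demethylase Kdm1a (-0.11) did not pass the test. Polr2a, the largest subunit of RNA polymerase II, which was chosen after its values were seen, rose by 1.03 (adjusted p = 0.012).

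The rise went with the length of the gene on the genome. Genes were put into 10 groups by their genomic span in RefSeq. In the group of the shortest genes, up to 4751 bases, the median log2 fold change was -0.06, and 7.81% of genes were higher and 17.5% lower. In the group of the longest genes, from 118233 bases on, the median was 0.15, and 30.2% were higher and 2.01% lower. With Rapalink-1 the medians of the same groups were -0.01 and 0.01. Across 9469 genes, the Spearman correlation of span and fold change was 0.26 for rapamycin and -0.01 for Rapalink-1, a description across genes that share the libraries. Within the group of the longest genes each DMSO library lay below the mean of the 6 libraries, by 0.062 to 0.09 on the log2 scale, and each rapamycin library above it, by 0.063 to 0.091. A fit with this trend removed called 1285 genes higher and 1189 lower (13.6% and 12.6% of the 9469, and 26.1% together), and 2042 of the 2512 genes called before were called again. The chromatin list then had 48 higher and 4 lower, with a median of 0.23 instead of 0.29, and the sterol list 19 lower and 1 higher, with a median of -0.25. What links span and fold change was not tested.

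**Figure D4:**
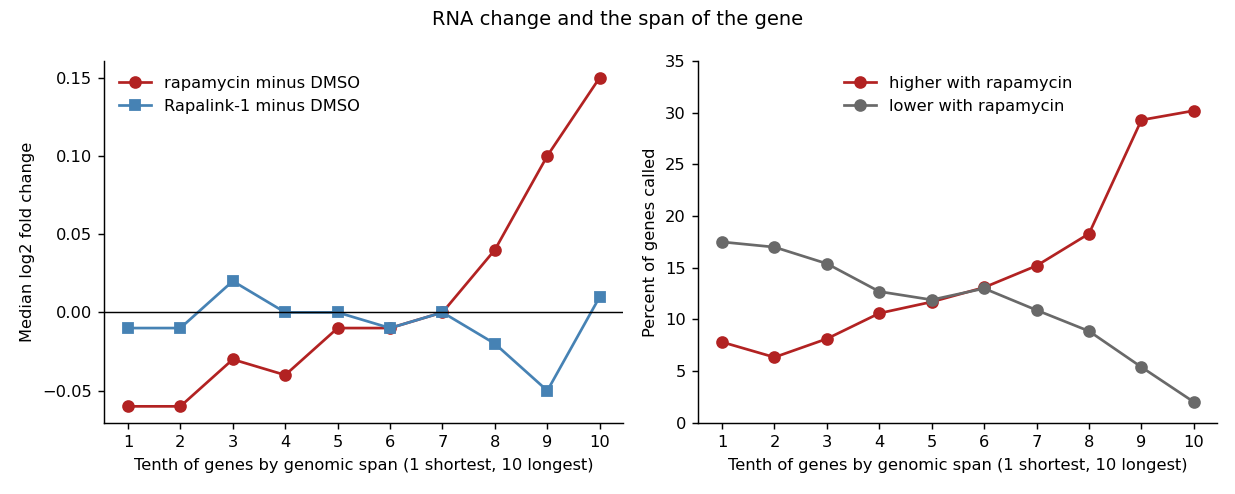
Median log2 fold change (left) and percent of genes called (right) for 10 groups of 946 to 948 genes ordered by genomic span. The rapamycin medians go from -0.06 in the shortest to 0.15 in the longest group, while the Rapalink-1 medians end at 0.01.

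Mitotic genes rose more often than they fell, with 18 higher and 2 lower of 41 and a median of 0.10. Cenpf, a large kinetochore protein, measured 200, 192 and 199 CPM in DMSO and 398, 348 and 395 CPM with rapamycin (0.95 ± 0.051, SE, adjusted p = 1.4e-18). Mki67, the proliferation antigen, went from 252, 229 and 269 CPM to 428, 392 and 381 CPM (0.68 ± 0.055, SE, adjusted p = 8.9e-12), and the kinetochore motor Cenpe rose by 0.55. Genes that carry out the entry into mitosis did not pass the test, among them Ccnb1 (-0.02), Cdk1 (-0.01), Plk1 (0.02) and Ccna2 (-0.08). Of 45 genes of G1 and DNA replication, 11 were higher and 6 lower, against 13.6% and 10.5% of all genes tested. Ccne2, cyclin E2, fell by 0.41, and the polymerase subunit Pole and the ligase Lig1 rose by 0.32 and 0.33.

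Of 63 replication-dependent histone genes tested, edgeR called 36 lower and 0 higher, with a median of -0.13. At an unadjusted p under 0.05, 39 were lower and 0 higher, DESeq2 called 35 and 0, and 25 of the 63 were marked as sharing reads with a similar gene. By class, 14 of 15 H2B genes, 12 of 18 H2A genes, 9 of 12 H3 genes, 1 of 5 H1 genes and 0 of 13 H4 genes were lower, and the medians were -0.28 for H2B and 0.10 for H4. The difference between classes was not tested. Hist1h2ba went from 633, 511 and 631 CPM to 372, 358 and 357 CPM (-0.71 ± 0.058, SE, adjusted p = 3.7e-09), and Hist1h2bp from 886, 822 and 908 CPM to 681, 649 and 678 CPM (-0.38). In both the control values scattered more than the treated ones, and no groups overlapped, which for Hist1h2ba the naming rule asked for. Without DMSO replicate 2, 37 were lower and 13 higher, so the count of 0 rises rests on that library.

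Most genes of the mitochondrion did not pass the test, as with all genes tested, and those called were mostly lower. Over all genes tested, 13.6% were higher and 10.5% lower. Of 76 mitochondrial ribosomal proteins, edgeR called 21 lower and 0 higher, with a median of -0.08. At an unadjusted p under 0.05, 28 were lower and 4 higher, DESeq2 called 20 and 0, and without rapamycin replicate 1 or 3 the counts of lower genes were 11 and 12. These genes are short, with a median span of 7690.5 bases, and with the span trend described above removed 12 were lower and 4 higher. Mrpl46 went from 55.3, 53.6 and 55.7 CPM to 41.8, 42.7 and 40.9 CPM (-0.39 ± 0.076, SE, adjusted p = 0.00011). Of 76 nuclear genes of oxidative phosphorylation, 20 were lower and 5 higher, with a median of -0.04, and without DMSO replicate 2 the count of higher genes was 10. Removal of the span trend left 16 of 75 lower and 7 higher. None of the 13 genes of mitochondrial DNA passed the edgeR test, 1 was lower at an unadjusted p under 0.05, and DESeq2 called 1 lower. Their share of reads lay between 1.42 and 2.2% in DMSO and between 1.62 and 1.86% with rapamycin, and DMSO replicate 3 had the highest median. Without that library 5 of them were higher, and without DMSO replicate 2, 2 were lower.

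Autophagy genes rose at the start of the pathway. In the list of lysosome and autophagy genes, 14 of 50 were higher and 7 lower, with a median of 0.03. Of 9 subunits of the ULK1 and VPS34 complexes, grouped after the values were seen, 6 rose and 0 fell. Atg14, the VPS34 subunit for autophagy, went from 5.47, 5.84 and 5.27 CPM to 11.7, 14.7 and 13.9 CPM (1.28 ± 0.16, SE, adjusted p = 2.3e-08), and Atg13, which mTOR phosphorylates in the ULK1 complex, from 5.2, 3.83 and 7.7 CPM to 13.3, 11 and 12.9 CPM (1.20 ± 0.18, SE, adjusted p = 1.8e-06). Both were low in every control and higher in every treated library. Ulk1 rose by 0.99, Atg101 by 0.57, the VPS34 catalytic subunit Pik3c3 by 0.52 and Rb1cc1 by 0.45. Lysosomal enzymes and membrane proteins had 2 higher and 3 lower of 16. Over the whole list the count of lower genes was 4 without rapamycin replicate 3. Tfeb, the factor that drives lysosomal genes, fell by 0.79 (adjusted p = 0.0063) from a mean of 5.97 ± 1.3 CPM to 3.51 ± 0.17 CPM (SD, n = 3 each), and the call held in 5 of the 6 fits without a library.

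Genes of glycolysis and of the hypoxia response were called in both directions, with 3 higher and 7 lower of 25 and 4 higher and 6 lower of 19. The shares over all genes tested, for these and the lists below, were 13.6% higher and 10.5% lower. Without rapamycin replicate 2 the hypoxia list had 3 lower. The lactate carrier Slc16a1 fell by 0.27 and the mitophagy receptor Bnip3 by 0.50, while its relative Bnip3l rose by 0.53. Immediate early genes with a tested row were few. Jun, a part of AP-1, went from 18.4, 19.6 and 17.4 CPM to 10.7, 11.3 and 12.2 CPM (-0.70 ± 0.14, SE, adjusted p = 0.00013), Jund fell by 0.42 and Klf10 by 0.68, 3 lower and 2 higher of 20. Trp53, which encodes p53, passed the test at 0.35, and without DMSO replicate 1 it stood at 0.23 and was not called (adjusted p = 0.099). Its list had 3 higher and 3 lower of 18. Without DMSO replicate 1, 1 was higher.

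Genes of the lineage were called in both directions, as were all genes tested, of which 13.6% were higher and 10.5% lower. In the list of hedgehog and granule neuron genes, 6 of 16 were higher and 2 lower, with a median of 0.16. After removal of the span trend 5 were higher and 2 lower, with a median of 0.07. Pax6 went from 49.1, 48.3 and 45.5 CPM to 66.4, 71.2 and 78.5 CPM (0.59 ± 0.071, SE, adjusted p = 1.5e-08), Neurod1 rose by 0.38, Sox11 by 0.38 and the hedgehog receptor and target Ptch1 by 0.54. The neuronal tubulin Tubb3 fell by 0.28. Among progenitor and Notch genes, 4 of 15 were higher and 2 lower, and without rapamycin replicate 1 the count of higher genes was 2. With the span trend removed 2 were higher and 2 lower, with a median of -0.03. Notch2 rose by 0.55, Notch1 by 0.50 with a call that held in 2 of the 6 fits without a library, the RNA-binding protein Msi1 by 0.91, and the Notch target Hey1 fell by 0.87 (adjusted p = 0.0081). Hey1 was low, with a mean of 5.02 CPM in DMSO and 2.72 CPM with rapamycin. Nes (0.10), Prom1 (-0.05) and Slc1a3 (0.04) did not pass the test. Of 18 clock genes, 4 were higher and 2 lower, with the nuclear receptors Nr1d2, Rora and Rorb at 0.75, 1.13 and 1.18 and the repressor Cry1 at -0.48. Rora and Rorb were low, with DMSO means of 3.2 and 4.36 CPM and rapamycin means of 7.37 and 9.94 CPM. After removal of the span trend the clock list had 4 higher and 3 lower, and Rora stood at 0.87.

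Rapalink-1 was then compared with rapamycin directly, a contrast without shared controls but with different doses, 50 and 5 nM. RNA of 2213 genes was higher with Rapalink-1 and that of 2422 lower, 19.6% and 21.5% of those tested and 41.1% together. Scaled by library totals in place of TMM factors, 1056 were higher and 3963 lower, and the median of all genes lay at -0.14, so directions in this contrast are relative to the TMM scale. The same change of scaling moved the median of the rapamycin contrast by 0.006.

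Some genes that rapamycin raised were not higher with Rapalink-1. Among them, Srcap was named for being 1 of the 6 lowest with Rapalink-1 against rapamycin, and Spen and Qser1 for their rise with rapamycin. Srcap, at 66.9 to 78.8 CPM with rapamycin, measured 27.2, 27.1 and 27.4 CPM with Rapalink-1, below its DMSO libraries, a difference of -1.41 ± 0.083 on the log2 scale (SE, adjusted p = 4.9e-18). Spen and Qser1 were lower with Rapalink-1 than with rapamycin by differences of -1.19 and -1.28, and stood at 0.04 and 0.07 against DMSO. Of the 12 largest rises, Zswim4 and Mxd4 stood at 1.02 and 0.94 against DMSO with Rapalink-1. Among the genes named for being lowest with Rapalink-1 against rapamycin, Ankrd52, a subunit of a phosphatase complex, was at 1.04 with rapamycin and -0.90 with Rapalink-1, a difference of -1.94 ± 0.13 (SE, adjusted p = 3.2e-16). Ddx6, a helicase of mRNA decay, stood at 0.63 and -0.86. Lig4, the ligase of DNA end joining, did not pass the test with rapamycin (0.13) and was lower with Rapalink-1 than with rapamycin by a difference of -1.49. Over the chromatin list 14 genes were higher and 42 lower with Rapalink-1 than with rapamycin, and its median against DMSO was 0.02 for Rapalink-1 and 0.29 for rapamycin. That list was added after the rapamycin values were seen, and this contrast uses the same rapamycin libraries. Its counts therefore only describe.

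Other genes were further up with Rapalink-1. Ccng2 and Hbp1 were higher than with rapamycin by 0.79 and 0.70 (adjusted p = 2.9e-09 and 3.7e-11), and Klhl24 by 0.45. Fbxl20 (0.00, SE 0.099) and Ubald2 (-0.10, SE 0.078) did not pass the test of the difference. Txnip, at 8.71 to 12.3 CPM with rapamycin, measured 40.6, 39.2 and 38.2 CPM with Rapalink-1, a difference of 1.87 ± 0.12 (SE, adjusted p = 2.1e-17). Pcdh8, a protocadherin, and Coq8a, of coenzyme Q synthesis, rose with rapamycin by 0.99 and 1.03 and lay further up with Rapalink-1 by 2.21 and 1.09. Among histone genes, 58 of 63 were higher with Rapalink-1 than with rapamycin and 0 lower. Hist1h1a measured 1780, 1790 and 1790 CPM in DMSO, 1530, 1530 and 1550 CPM with rapamycin and 3310, 3160 and 3200 CPM with Rapalink-1, so the 3 groups did not overlap and the 2 drugs lay on opposite sides of DMSO. Of 32 sterol genes, 8 were higher and 12 lower with Rapalink-1 than with rapamycin, and Msmo1 was lower with Rapalink-1 by a difference of -0.44 ± 0.059 (SE, adjusted p = 7.9e-08). Large subunit ribosomal proteins were higher with Rapalink-1 for 33 of 49 and lower for 1, with a median difference of 0.14. Over all genes 19.6% were higher and 21.5% lower. With library totals in place of TMM factors the median of all genes lay at -0.14, so this result is relative to the TMM scale.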

How the data were processed

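RNA was extracted from an aliquot of lysed cells and the ARTseq kit served for library preparation, per the labels' protocols. The authors deposited a table of read counts per transcript and library, and a table of their own comparison with log2 fold changes and adjusted p-values. The build was GRCm38, per the submitters' processing notes. Each of aligner, counter and annotation is not given in the sources used here. Deposited test score and mean signal columns were not used for tests.

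Transcript rows that shared a deposited gene identifier or identical counts were joined and the row with the most reads was kept, which left 15307 features, 9787 of them with a symbol. Reads without a symbol made up 1.919 to 2.056% of a library. The 9 RNA libraries were fitted together with edgeR 4.0.16 in R 4.3.3 (TMM factors, filterByExpr with a minimum count of 10, robust quasi-likelihood test), and p-values were adjusted by Benjamini-Hochberg over all 11271 genes, with calls under 0.05. Standard errors are the fold change divided by the square root of F. The fit was tested on simulated data with known changes.

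Named genes were the 12 largest changes each way among called genes with a symbol, no overlap of groups and a mean log2 CPM of at least 4, up to 4 genes of each list by smallest p, a fixed set (Mycn, Ccnd1, Odc1, Eef2, Eef1a1, Mtor, Eif4ebp1, Atf4, Larp1 and Irs2), and 6 genes each way for Rapalink-1 against rapamycin, leaving aside genes marked as sharing reads with another. Other genes named were chosen after their values were seen. The members and gene lists were chosen with earlier results of these data known. Alternatives were DESeq2 1.42.0, other scaling and filters, another way of collapsing, fewer groups, a replicate block, leaving out each library and, added after seeing the data, removal of a trend with genomic span. Promoters and spans came from RefSeq tables of GRCm38.p6. A few list members are counted within their lists but not reported individually here.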

Additional observations from a re-analysis of the deposited data

How the results depend on the processing

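Under the alternatives run, 0 called genes among those named reversed direction. Uncalled genes near 0 could change sign, as Eif4ebp1 and Acta2 did when a library was left out. Of 157 named genes 142 were called, 129 of them under every alternative, 13 lost the call under at least 1, and 5 others gained it under at least 1. When each library was left out in turn, the count of called genes ran from 1992 to 2764, of higher genes from 1174 to 1556, of lower genes from 818 to 1250, of rises by at least 1 on the log2 scale from 93 to 165 and of such falls from 11 to 14. For Rapalink-1 against rapamycin it ran from 3901 to 4097 in all, 1847 to 1945 higher and 2054 to 2161 lower. Rises by at least 1 numbered 48 with the span trend removed and 62 with a minimum count of 50. Falls by at least 1 numbered 6 with the DESeq2 Wald test, 1 with the span trend removed, 2 with a minimum count of 50 and 20 with no count filter. The minimum count of 50 and the span fit tested fewer genes. Otherwise the cause was not tested. With library totals in place of TMM factors, 1056 genes were higher and 3963 lower with Rapalink-1 than with rapamycin. The replicate block gave 2479 calls, 1423 higher and 1056 lower, for rapamycin and 4467, 2112 higher and 2355 lower, for Rapalink-1 against rapamycin. Same-numbered DMSO and rapamycin libraries had correlations of deviations of -0.044, -0.176 and -0.092, so the numbers were not taken as a pairing, and 0 of the 3 correlated best with its own number. DMSO replicate 3, with 6788365 reads, was the shallowest of the 6 libraries, which limits the precision of genes at a few CPM.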
